A study of Homo sapiens with 6 samples.

Results

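The genes described here are 10 protein-coding genes that follow each other on band 3p13 of human chromosome 3, in the order FOXP1, EIF4E3, GPR27, PROK2, RYBP, SHQ1, GXYLT2, PPP4R2, EBLN2 and PDZRN3. They are 10 of the 34918 genes summed from the deposited transcript files. They were chosen by position around GPR27 and PROK2, and GPR27 and PROK2 had been singled out by their difference between the 2 sources of cells compared here. The levels and fold changes of the 10 genes are therefore given as a description, with no test. The cells were THP-1, a human acute monocytic leukaemia line that grows in suspension, obtained from the DSMZ repository (3 libraries) or from the ATCC repository (3 libraries). Cells of both repositories were untreated, grew side by side in RPMI with 20% serum and were harvested while still expanding, and each replicate was an independent expansion. The series asked how far cells of this line differ between the 2 repositories. Whether a difference belongs to the repository or to the vial of cells it supplied cannot be told apart.

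The region holds genes of unrelated function. PROK2 encodes prokineticin 2, a small secreted peptide made by myeloid cells that signals through G protein-coupled receptors and is known for its roles in angiogenesis and in the mobilisation of blood cells. GPR27 is an orphan G protein-coupled receptor of the SREB family, named for high conservation and expression in brain. EIF4E3 belongs to the eIF4E family, whose members bind the 5′ cap of mRNA. FOXP1 is a forkhead transcription factor that mostly represses its targets and is used by many blood cell types. RYBP is a subunit of variant Polycomb repressive complex 1, which places ubiquitin on histone H2A, and SHQ1 is an assembly chaperone of H/ACA ribonucleoproteins.

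Libraries held 23413428 to 37119721 estimated counts. Of 10 monocytic markers, 9 were above 1 TPM (a level scaled by transcript length and library) in every library. The exception was CD14, at 0.278 ± 0.044 TPM in DSMZ cells and 1.41 ± 0.48 TPM in ATCC cells (SD, n = 3 each). The summed level of the monocytic markers ran from 1011 to 1174 TPM in DSMZ libraries and from 1012 to 1316 TPM in ATCC libraries. Single markers within these sums differed in both directions. MPO had 34.7 ± 6.2 TPM in DSMZ cells and 4.76 ± 0.18 TPM in ATCC cells, and CD33 24.9 ± 1.9 TPM in DSMZ cells and 73.8 ± 4.8 TPM in ATCC cells. Of 10 markers of lymphoid, erythroid, epithelial, fibroblast, endothelial and neural cells, 1 (PECAM1, also made by monocytes) was above 1 TPM in every library. The T cell gene CD3E and the B cell gene MS4A1 had 0 counts in all 6 libraries. The sum of these markers was 78.7 to 96.4 TPM in DSMZ libraries and 126 to 155 TPM in ATCC libraries, most of it PECAM1, and its part in the results was not tested. ATCC replicate 2 stood apart by GC content: among 10 equal groups of genes by GC content, the median deviation from the ATCC mean in the lowest group was -0.63 log2 units in this library, against 0.42 in ATCC replicate 1 and 0.19 in ATCC replicate 3. In the DSMZ libraries the same medians, from the DSMZ mean, lay between -0.02 and 0.03.

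The adjacent genes EIF4E3, GPR27 and PROK2 were low in DSMZ cells and expressed in ATCC cells, while FOXP1 and RYBP, the next genes on each side, were expressed in both. These 3 lie within a stretch that in chromosome order runs from the edge of EIF4E3 at chr3:71675416 to the edge of PROK2 at chr3:71785206 (GRCh38). The gene before the stretch, FOXP1, lies 91.4 kb from EIF4E3, and the gene after it, RYBP, lies 587 kb from PROK2. In a fit of all 14572 genes that passed a filter on low counts, 9 of the 10 genes could be fitted, and edgeR's quasi-likelihood test called 3 of the 9, all lower in DSMZ cells. Of all genes tested, 49.8% were called and 25.7% were called lower in DSMZ cells. The values of 2 of the 3 called genes led to the choice of this region, so nothing is read from that count. The exception to the filter was PDZRN3, whose counts were too few.

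**Figure D1:**
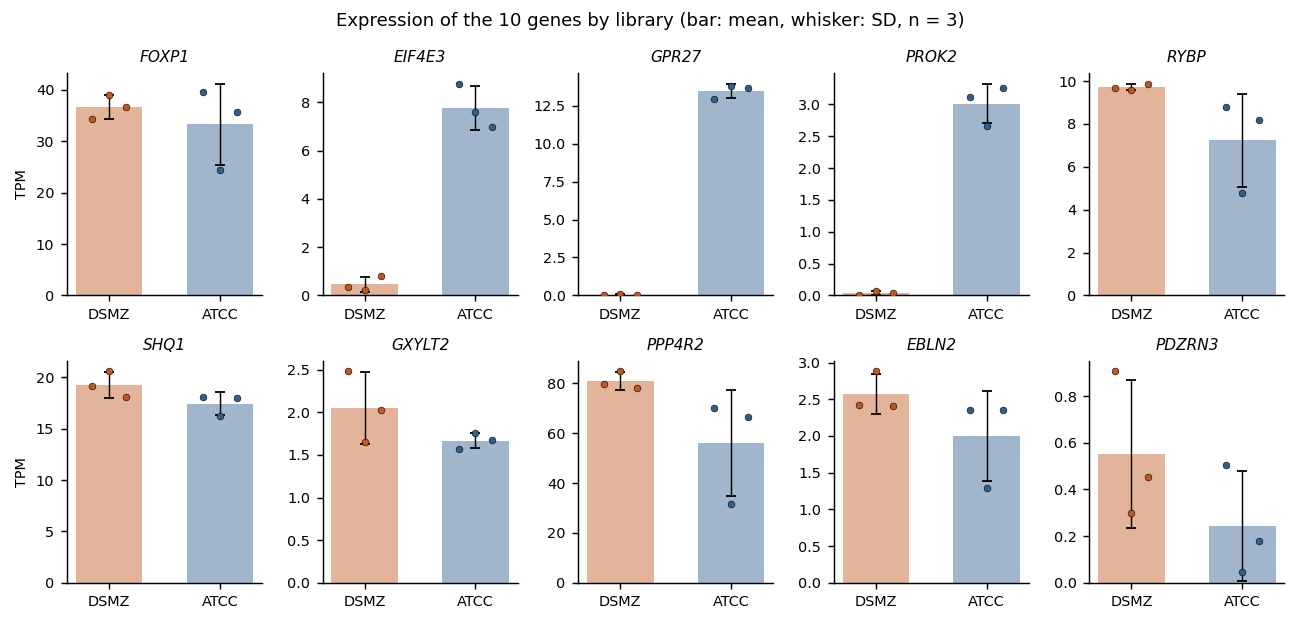
TPM of each of the 10 genes in 3 DSMZ and 3 ATCC libraries (points), with the mean (bar) and SD (whisker). EIF4E3, GPR27 and PROK2 are near 0 in DSMZ libraries and at means of 7.79, 13.5 and 3.01 TPM in ATCC libraries. The other 7 genes had counts in every library of both sources, as did EIF4E3 and GPR27. Of these 7, PDZRN3 was low in both sources, at means of 0.552 TPM in DSMZ and 0.243 TPM in ATCC libraries.

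GPR27 is a gene of 1 exon on the plus strand (chr3:71754050-71756496) and has 1 listed transcript. It had 1, 4 and 1 counts in the DSMZ libraries, against 668, 716 and 723 counts in the ATCC libraries. In length-scaled terms this was 0.0226, 0.0748 and 0.0141 TPM in DSMZ cells and 12.9, 13.8 and 13.7 TPM in ATCC cells. All 3 DSMZ libraries were close to no signal, and the 3 ATCC libraries were close to each other. The fitted log2 difference was -8.44 (SE 0.29), the 9th lowest of the 14572 genes tested. The ratio of summed counts scaled for depth was 370 in ATCC over DSMZ cells, with a 95% exact interval of 170 to 1010 that covers counting error only. DSMZ replicate 2 held 4 of the 6 DSMZ counts, and without that library the log2 difference was -9.39. In bulk RNA such as this, fewer cells expressing a gene and less RNA per cell cannot be told apart.

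PROK2 lies on the minus strand (chr3:71771656-71785206), 15.2 kb beyond the end of GPR27. It had 0, 2 and 1 counts in the DSMZ libraries, against 81, 66 and 80 counts in the ATCC libraries. Its level was 0, 0.0643 and 0.0419 TPM in DSMZ cells and 3.11, 2.66 and 3.26 TPM in ATCC cells. Again no DSMZ library reached the level of any ATCC library. The log2 difference was -6.15 (SE 0.41), the 42nd lowest of all genes tested, and -7.02 without DSMZ replicate 2. The count ratio was 79.8 in ATCC over DSMZ cells, with a counting interval of 27.0 to 390 that is wide because the DSMZ libraries hold 3 counts in all. Both annotated transcripts were present in ATCC cells: PROK2-202 made up 71.3% ± 6.9 and PROK2-201 28.7% ± 6.9 of the gene's counts (SD, n = 3). The 3 DSMZ counts are too few to give such shares.

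EIF4E3 lies on the minus strand (chr3:71675416-71754773), and its 5′ end overlaps the 5′ end of GPR27 on the opposite strand. It had 11, 20 and 17 counts in the DSMZ libraries, against 443, 344 and 470 counts in the ATCC libraries. Its level was 0.333, 0.228 and 0.811 TPM in DSMZ cells and 8.77, 7.62 and 6.97 TPM in ATCC cells. The DSMZ libraries all lay far below the ATCC libraries, but unlike GPR27 the gene kept a measurable level in each of them. The log2 difference was -4.77 (SE 0.21), the 91st lowest of all genes tested, and the count ratio was 27.6 in ATCC over DSMZ cells (95% counting interval 20.7 to 37.7). With log2(TPM + 0.5) in limma, where the added constant shrinks the differences of low genes, the values were -3.16 for EIF4E3, -4.70 for GPR27 and -2.71 for PROK2.

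Because EIF4E3 and GPR27 overlap on opposite strands, their transcripts were looked at one by one. The spans of the 2 genes share 724 bases, and their exons share 299 bases. The RNA kit keeps strand, but whether reads were assigned by strand is not stated. The shared exonic bases fall in EIF4E3-203 (130 bases) and in EIF4E3-205 and EIF4E3-209 (169 bases each), whose first exons lie inside GPR27. EIF4E3-201 starts 426 bases before the start of GPR27, runs away from it and shares no exonic base with it. This transcript carried most of the gene's counts in ATCC cells. It had 1.18, 10.3 and 6.25 estimated counts in the DSMZ libraries and 250, 222 and 300 estimated counts in the ATCC libraries. This was 61.7% ± 4.5 of the gene's counts in ATCC cells (SD, n = 3), or 56.0% when shares were taken from TPM. In DSMZ cells, where counts were few, the share of EIF4E3-201 was 33.0% ± 20.6 and that of EIF4E3-202 was 48.7% ± 26.6. EIF4E3-202, which starts 24932 bases before GPR27 and has no overlap with it either, had 8.71, 7.22 and 5.23 estimated counts in the DSMZ libraries and 167, 33.2 and 97.2 estimated counts in the ATCC libraries. EIF4E3-205 was at 0 in all 3 DSMZ libraries and in ATCC replicate 1, and at 68.1 and 61.7 estimated counts in ATCC replicates 2 and 3. EIF4E3-203 and EIF4E3-209 had 0 counts in all 6 libraries. The low level of EIF4E3 in DSMZ cells was thus seen in transcripts that share no exonic sequence with GPR27.

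**Figure D2:**
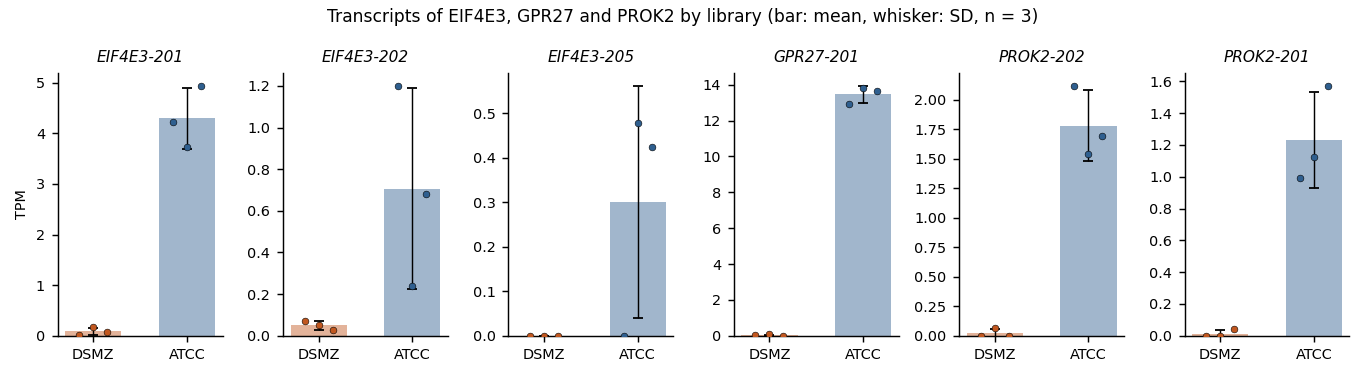
TPM of 3 transcripts of EIF4E3, the transcript of GPR27 and both transcripts of PROK2 in 3 DSMZ and 3 ATCC libraries (points; bar, mean; whisker, SD). Each transcript is near 0 in every DSMZ library; EIF4E3-205 is also at 0 in ATCC replicate 1, and EIF4E3-202 varies between ATCC libraries.

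The start regions of these genes are shown because they place the low stretch on the genome and show how differently its promoters are built. RefSeq start regions (GRCh38.p14, 250 bases before and 50 from the start on) were found for 8 of the 10 genes, the others being GPR27 and EBLN2. They are printed 5′ to 3′ on the strand of the gene, here the minus strand. Capitals mark short motifs searched on both strands. The E-box was searched as CACGTG and the AP-1 site as TGAGTCA. The GC box was searched as GGGCGG, and the CCAAT box by the letters of its name. The TATA box was taken as TATAAA, whose reverse reading is TTTATA, and the CRE (cAMP response element) was the palindrome TGACGTCA. No matches of different motifs overlapped in the sequences printed. The region for the start at 71785148 of PROK2 is chr3:71785099-71785398. That for a start of EIF4E3 inside GPR27, which is the start of EIF4E3-203 (0 counts in all 6 libraries), is chr3:71754724-71755023. That for the EIF4E3 start farther into the gene, used by EIF4E3-202, is chr3:71729069-71729368. Neither the start of EIF4E3-201, at 71753624, nor another listed EIF4E3 start inside GPR27, at 71754498, is among the regions printed. The region of RYBP, chr3:72446574-72446873, is given as that of the next gene along, which was expressed in both kinds of cells.
PROK2: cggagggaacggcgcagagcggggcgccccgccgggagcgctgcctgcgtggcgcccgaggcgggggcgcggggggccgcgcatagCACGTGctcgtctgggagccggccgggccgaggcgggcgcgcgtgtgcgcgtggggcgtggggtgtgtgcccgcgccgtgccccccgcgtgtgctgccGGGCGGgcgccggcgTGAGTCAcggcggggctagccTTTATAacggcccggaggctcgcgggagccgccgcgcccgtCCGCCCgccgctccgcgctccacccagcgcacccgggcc
EIF4E3, start inside GPR27: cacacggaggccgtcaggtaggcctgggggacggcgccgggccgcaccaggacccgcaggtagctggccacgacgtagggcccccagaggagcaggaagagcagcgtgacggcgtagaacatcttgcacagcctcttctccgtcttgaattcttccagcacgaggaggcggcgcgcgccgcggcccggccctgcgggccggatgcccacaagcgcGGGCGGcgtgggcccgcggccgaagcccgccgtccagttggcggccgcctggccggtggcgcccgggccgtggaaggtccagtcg
EIF4E3, start of EIF4E3-202: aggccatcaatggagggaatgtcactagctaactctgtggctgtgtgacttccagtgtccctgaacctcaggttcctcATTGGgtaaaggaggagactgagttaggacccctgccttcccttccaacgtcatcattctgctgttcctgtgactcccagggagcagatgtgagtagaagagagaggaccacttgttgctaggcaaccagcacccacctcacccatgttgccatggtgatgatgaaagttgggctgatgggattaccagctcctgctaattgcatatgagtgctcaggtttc
RYBP: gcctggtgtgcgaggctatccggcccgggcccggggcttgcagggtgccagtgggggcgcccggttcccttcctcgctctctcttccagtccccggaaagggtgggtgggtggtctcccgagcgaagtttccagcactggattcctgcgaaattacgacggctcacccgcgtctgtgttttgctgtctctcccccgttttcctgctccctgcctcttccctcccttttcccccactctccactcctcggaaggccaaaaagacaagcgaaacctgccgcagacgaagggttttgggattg

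The PROK2 region was 82.3% G and C, above 98.9% of the 35116 RefSeq start regions, and held 55 CpG. It held the TATA box letters in their reverse reading, with the first base 30 bases before the RefSeq start at 71785148. An AP-1 site lay 51 bases and an E-box 164 bases before that start, and there were 2 GC boxes. The PROK2 transcripts counted here start elsewhere, PROK2-202 at 71785206 and PROK2-201 at 71785061. The distances are thus from the RefSeq start only. Of all start regions, 11.5% held the TATA box letters, 4.95% the AP-1 letters, 7.26% the E-box letters and 45.0% the GC box letters. The printed EIF4E3 region at the GPR27 end lay wholly inside GPR27, was 74% G and C with 39 CpG, and had 1 GC box. The region of EIF4E3-202 was 51.7% G and C with 1 CpG and had 1 CCAAT box, which 34.6% of all regions hold. The RYBP region, at 62.7% G and C and 20 CpG, had none of these letters. The CRE letters, held by 1.85% of all regions, were in none of the 4. These matches describe the sequence and do not show that a factor binds there.

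FOXP1 (chr3:70952817-71583993, minus strand), the nearest gene on one side, had 2491, 2946 and 3935 counts in the DSMZ libraries and 3565, 2436 and 3017 counts in the ATCC libraries. Its level was 36.6 ± 2.3 TPM in DSMZ cells and 33.2 ± 7.9 TPM in ATCC cells (SD, n = 3 each), and the libraries overlapped. The log2 difference was -0.02 (SE 0.12), between -0.11 and 0.17 under 18 other settings, and none of these fits called it. The coding transcript FOXP1-220 made up 44.3% ± 6.8 of the gene's counts in DSMZ cells and 51.4% ± 6.4 in ATCC cells, and FOXP1-209 27.0% ± 4.0 in DSMZ cells and 26.9% ± 2.0 in ATCC cells. From TPM the ATCC shares were 31.8% for FOXP1-220 and 21.6% for FOXP1-209. The annotation also holds a gene model that joins exons of FOXP1 and EIF4E3 on the same strand, which was not analysed here.

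RYBP, the nearest gene on the other side, had 1382, 1650 and 2256 counts in the DSMZ libraries and 1464, 795 and 1391 counts in the ATCC libraries. Its level was 9.68, 9.59 and 9.87 TPM in DSMZ cells and 8.79, 4.76 and 8.16 TPM in ATCC cells. All DSMZ libraries lay above all ATCC libraries, and ATCC replicate 2 was the lowest of the 6. The log2 difference was 0.46 (SE 0.20) and fell to 0.26 without ATCC replicate 2, and to 0.35 with a correction for GC content. PPP4R2, a regulatory subunit of protein phosphatase 4, had the same pattern, with 79.7, 85.0 and 78.2 TPM in DSMZ cells and 70.2, 31.8 and 66.3 TPM in ATCC cells. Its log2 difference was 0.62 (SE 0.26), 0.35 without ATCC replicate 2 and 0.36 with the GC correction. At 36.7% G and C it is the most AT-rich of the 10 genes. The test did not call RYBP or PPP4R2, but called both, higher in DSMZ cells, under 5 other settings, among them leaving out ATCC replicate 1 or ATCC replicate 2. PPP4R2 was also called with no filter on low counts.

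EBLN2, a protein-coding copy of a bornavirus nucleoprotein gene inserted long ago into the genome of human ancestors, lies inside the span of PPP4R2 on the same strand and shares no exonic base with it. It had 2.42, 2.88 and 2.41 TPM in DSMZ cells and 2.35, 1.29 and 2.35 TPM in ATCC cells, again with ATCC replicate 2 lowest. The log2 difference was 0.40 (SE 0.23), 0.19 without ATCC replicate 2, and no fit called it. GXYLT2, an enzyme that adds xylose to O-glucose on Notch proteins, had 88, 113 and 144 counts in the DSMZ libraries and 112, 103 and 122 counts in the ATCC libraries. Its level of 2.05 ± 0.42 TPM in DSMZ cells and 1.67 ± 0.09 TPM in ATCC cells overlapped between the sources. The log2 difference was -0.05 (SE 0.13), and its sign changed under some settings (range -0.12 to 0.31, the highest with a transcript length offset). GXYLT2 and PPP4R2 share 62 exonic bases on the same strand.

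SHQ1 had 849, 1041 and 1271 counts in the DSMZ libraries and 1008, 953 and 989 counts in the ATCC libraries. Its level was 19.3 ± 1.3 TPM in DSMZ cells and 17.5 ± 1.1 TPM in ATCC cells, with a log2 difference of 0.03 (SE 0.09) whose sign changed under some settings (range -0.12 to 0.16). Its transcripts were less even than its total. In DSMZ replicate 1 the coding transcript SHQ1-201 held 17.4% of the counts and the transcript SHQ1-202, annotated as a target of nonsense-mediated decay, held 79.8%, while in DSMZ replicates 2 and 3 SHQ1-201 held 85.1% and 90.7%. ATCC libraries lay between, at 51.2%, 69.6% and 74.1% for SHQ1-201. The 2 transcripts have nearly the same length and ends, and the estimated split was not tested. PDZRN3, a ubiquitin ligase with PDZ domains, had 13, 10 and 13 counts in the DSMZ libraries and 7, 2 and 5 counts in the ATCC libraries. Without a filter on low counts its log2 difference was 1.29, from counts this small.

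**Figure D3:**
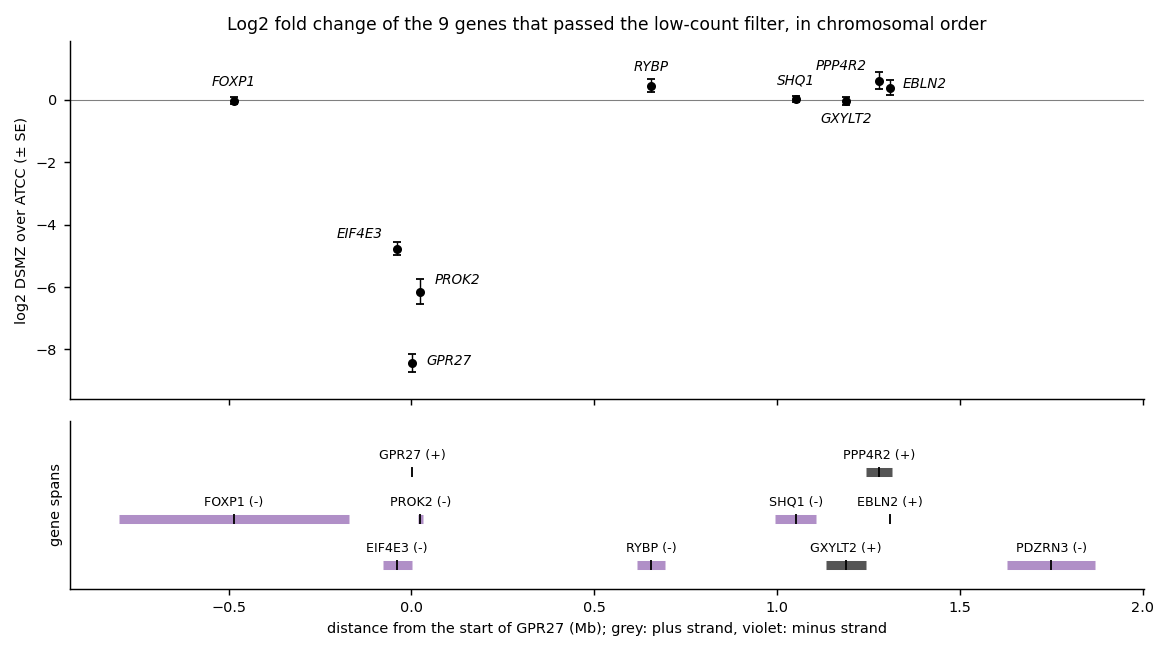
Upper panel, log2 difference of DSMZ over ATCC cells (± SE of the fit, 3 libraries each) for the 9 genes that passed the filter on low counts, at the middle of each gene. Lower panel, spans of the 10 genes to scale from the start of GPR27; EIF4E3, GPR27 and PROK2 lie together at -4.77, -8.44 and -6.15, and the 6 other genes lie between -0.05 and 0.62.

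Of the 9 genes in the fit, 6 had libraries of the 2 sources that did not overlap in CPM (counts scaled by library size), as did 62.4% of all genes tested. EIF4E3, GPR27 and PROK2 were below and RYBP, PPP4R2 and EBLN2 above in DSMZ cells. By mean TPM the order in DSMZ cells was PPP4R2 (80.9), FOXP1 (36.6), SHQ1 (19.3), RYBP (9.71), EBLN2 (2.57), GXYLT2 (2.05), PDZRN3 (0.552), EIF4E3 (0.457), GPR27 (0.0372) and PROK2 (0.0354). In that order EBLN2 and GXYLT2, PDZRN3 and EIF4E3, and GPR27 and PROK2 overlapped between libraries. In ATCC cells the order was PPP4R2 (56.1), FOXP1 (33.2), SHQ1 (17.5), GPR27 (13.5), EIF4E3 (7.79), RYBP (7.24), PROK2 (3.01), EBLN2 (2.00), GXYLT2 (1.67) and PDZRN3 (0.243). There the pairs PPP4R2 and FOXP1, EIF4E3 and RYBP, and EBLN2 and GXYLT2 overlapped. GPR27 was thus the fourth most abundant of the 10 genes in ATCC cells and among the lowest 2 in DSMZ cells.

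Other listed genes between these 10 had almost no counts. Of 9 pseudogenes that lie between the end of PROK2 and PDZRN3, 5 had 0 counts in all 6 libraries. AC105265.2, which starts at 72086888 and was picked out after its values were seen, had 1, 0 and 1 counts in the DSMZ libraries and 8, 6 and 9 counts in the ATCC libraries. It lies 0.333 Mb beyond the start of GPR27, in the gap between PROK2 and RYBP.

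The genes farther out were taken by position, in a window set with earlier results of these data known, and were tested. The window of 60 to 84 Mb on chromosome 3 held 34 other protein-coding genes, of which 23 passed the filter. By edgeR's quasi-likelihood test with Benjamini-Hochberg adjustment over all 14572 genes, 7 were higher in DSMZ cells, 6 were lower and 10 were not called. The called share, 56.5%, was near the 49.8% of all genes. Their median log2 difference was 0.25, against 0.31 over the 774 protein-coding genes tested on chromosome 3 and 0.01 over all genes tested. On chromosome 3, 293 of those 774 genes were higher in DSMZ cells and 107 lower. Leaving out DSMZ replicate 3 brought the count of called neighbours to 8.

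The nearest genes on each side were not called or had too few counts to be tested. MITF, a transcription factor of melanocytes and of osteoclast and mast cell development, had 1.99 ± 0.48 TPM in DSMZ cells and 1.79 ± 0.56 TPM in ATCC cells (log2 difference -0.03, SE 0.21, edgeR adjusted p = 0.922), with a sign that changed under other settings. FRMD4B, a scaffold protein with a FERM domain, had 17.9 ± 0.8 TPM in DSMZ cells and 15.1 ± 4.1 TPM in ATCC cells (log2 difference 0.16, SE 0.25, adjusted p = 0.609, and -0.08 without ATCC replicate 2). MDFIC2, which starts at 70196894, had 0 counts in all 6 libraries. On the far side CNTN3, an adhesion protein of neurons, had 0 counts in DSMZ and 1 count in ATCC libraries, and FRG2C had 6 counts in DSMZ and 5 counts in ATCC libraries. ZNF717, a zinc finger gene, had 3.34 ± 0.91 TPM in DSMZ cells and 5.11 ± 0.46 TPM in ATCC cells (log2 difference -0.51, SE 0.22, adjusted p = 0.0858). It was called under 4 other settings, with adjusted p from 0.00698 without ATCC replicate 2 (log2 difference -0.67) to 0.0407 with upper quartile normalization.

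Large differences appeared again 6.84 Mb beyond GPR27 and about 10 Mb before it. ROBO1, the Slit receptor of axon guidance, fell to 0.204 ± 0.138 TPM in DSMZ cells, against 23.2 ± 9.6 TPM in ATCC cells. Its 3 DSMZ libraries held 23 counts in all and its 3 ATCC libraries 6106 counts (log2 difference -8.09, SE 0.29, edgeR adjusted p = 3.53e-06). PTPRG, a receptor tyrosine phosphatase, had 0.0785 ± 0.0161 TPM in DSMZ cells and 4.71 ± 1.4 TPM in ATCC cells (log2 difference -6.24, adjusted p = 9.51e-06). FHIT, a hydrolase gene that spans the fragile site of 3p14, had 0.0559 ± 0.0365 TPM in DSMZ cells and 1.01 ± 0.06 TPM in ATCC cells (log2 difference -3.16, adjusted p = 0.000376). In the other direction, FEZF2, a zinc finger factor of the forebrain, had 1.63 ± 0.26 TPM in DSMZ cells and 0.0426 ± 0.0297 TPM in ATCC cells (log2 difference 5.18, adjusted p = 4.31e-05), and 5.81 without ATCC replicate 1. GBE1, the branching enzyme of glycogen synthesis, had 103 ± 17 TPM in DSMZ cells and 32.9 ± 5.1 TPM in ATCC cells (log2 difference 1.67, adjusted p = 0.000137). All SDs here are over n = 3 libraries.

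**Figure D4:**
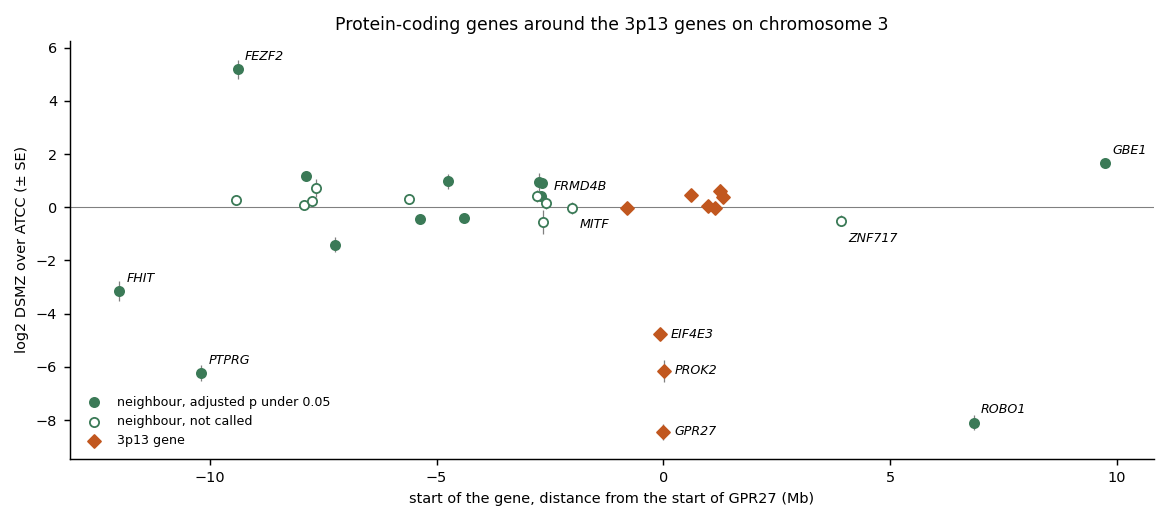
Log2 difference of DSMZ over ATCC cells (± SE) against the distance of each gene's start from the start of GPR27, for the 23 tested neighbours (circles; filled where the adjusted p is under 0.05) and the 9 genes of 3p13 in the fit (diamonds). ROBO1 at -8.09 and PTPRG at -6.24 reach the range of GPR27 and PROK2. Between PTPRG and GPR27 lie genes near 0, such as MITF at -0.03, but also FEZF2 at 5.18, ATXN7 at 1.19 and ADAMTS9 at -1.40.

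Genes elsewhere in the genome that work with the 3p13 genes, or are related to them, were taken from 8 lists. Of 69 genes, 59 were tested, and 19 were higher in DSMZ cells, 13 were lower and 27 were not called, a called share of 54.2% beside 49.8% of all genes. Their median log2 difference was 0.04. In the list of prokineticin signalling and SREB receptors, the receptors of PROK2 itself were not measurably expressed in either kind of cell. PROKR1 had 0 counts in DSMZ and 3 counts in ATCC libraries, PROKR2 had 0 counts in all 6 libraries, and the second ligand PROK1 had 0 counts in DSMZ and 1 count in ATCC libraries. With 0 counts over 3 libraries, levels of up to 0.0344 CPM in DSMZ cells and 0.0363 CPM in ATCC cells remain possible. The 3 genes of this list that were tested were all called. GPR85, an SREB receptor like GPR27, fell to 1.46 ± 0.62 TPM in DSMZ cells, against 7.93 ± 1.77 TPM in ATCC cells (log2 difference -2.58, SE 0.28, edgeR adjusted p = 0.000241). MRAP2, an accessory protein of melanocortin and prokineticin receptors, had 0.60 ± 0.146 TPM in DSMZ cells and 2.9 ± 0.26 TPM in ATCC cells (log2 difference -2.23, adjusted p = 0.000126). GPR173, the third SREB receptor, went the other way, with 87 counts in DSMZ and 10 counts in ATCC libraries (log2 difference 2.97, SE 0.33, adjusted p = 0.000302).

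Among FOXP factors and corepressors, 2 of 5 tested genes were called, both higher in DSMZ cells, and the median was -0.06. They were FOXP4 (19.4 ± 1.8 TPM in DSMZ cells and 15.4 ± 0.9 TPM in ATCC cells, log2 difference 0.34, edgeR adjusted p = 0.0378) and the NuRD subunit GATAD2B (26.7 ± 1.1 TPM in DSMZ cells and 18.4 ± 1.2 TPM in ATCC cells, log2 difference 0.39, adjusted p = 0.00817). The call of FOXP4 was lost in 12 of 18 other settings, with leaving out any 1 library except ATCC replicate 2 among them (adjusted p up to 0.206). That of GATAD2B was lost without DSMZ replicate 1 (adjusted p = 0.0599) or ATCC replicate 3 (adjusted p = 0.0522). Of the cap-binding list around EIF4E3, 3 of 12 tested genes were higher in DSMZ cells, 2 were lower, and the median was -0.07. EIF4E, the main cap-binding protein, had 103 ± 3 TPM in DSMZ cells and 129 ± 33 TPM in ATCC cells (adjusted p = 0.668), and its relative EIF4E2 120 ± 3 TPM in DSMZ cells and 99.1 ± 6.3 TPM in ATCC cells (adjusted p = 0.204). Of the 3 inhibitory EIF4E-binding proteins, 1 was higher, 1 was lower and EIF4EBP3 was not called (log2 difference -0.36, adjusted p = 0.223). EIF4EBP2 had 57.3 ± 2.3 TPM in DSMZ cells and 28.6 ± 1.0 TPM in ATCC cells (log2 difference 1.03, adjusted p = 9.24e-05), and EIF4EBP1 had 55.1 ± 1.9 TPM in DSMZ cells and 112 ± 19 TPM in ATCC cells (log2 difference -0.96, adjusted p = 0.0016). The helicase EIF4A2 had 742 ± 46 TPM in DSMZ cells and 437 ± 18 TPM in ATCC cells (log2 difference 0.81, adjusted p = 0.00019).

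The variant Polycomb list around RYBP had 16 tested genes, of which 6 were higher in DSMZ cells and 4 lower, with a median of 0.22. PCGF proteins, of which each complex holds 1, differed in both directions: PCGF2, PCGF3, PCGF5 and PCGF6 were higher and PCGF1 was lower in DSMZ cells (PCGF1 log2 difference -0.65, edgeR adjusted p = 0.00756). BMI1, also called PCGF4, was higher as well, with 206 ± 25 TPM in DSMZ cells and 97.3 ± 33.6 TPM in ATCC cells (log2 difference 0.90, edgeR adjusted p = 0.0169). The 3 largest differences of the list were in PCGF5, PCGF6 and PCGF2. PCGF5 had 10.8 ± 0.8 TPM in DSMZ cells and 4.55 ± 1.52 TPM in ATCC cells (log2 difference 1.28, edgeR adjusted p = 0.00924). PCGF6 had 15.8 ± 1.1 TPM in DSMZ cells and 7.40 ± 0.72 TPM in ATCC cells (log2 difference 1.27, adjusted p = 0.00012), and PCGF2 4.77 ± 0.46 TPM in DSMZ cells and 2.25 ± 0.39 TPM in ATCC cells (log2 difference 1.17, adjusted p = 0.00026). YAF2, the paralogue of RYBP, had 14.5 ± 1.3 TPM in DSMZ cells and 12.8 ± 3.5 TPM in ATCC cells (adjusted p = 0.45). Of the 8 genes of the H/ACA list around SHQ1, 1 was higher in DSMZ cells and 2 were lower, with a median of -0.22. DKC1, the pseudouridine synthase that SHQ1 escorts, fell to 66.6 ± 5.7 TPM in DSMZ cells, against 110 ± 11 TPM in ATCC cells (log2 difference -0.75, SE 0.09, adjusted p = 0.000422). TERT, the reverse transcriptase of telomerase, had 8.74 ± 1.10 TPM in DSMZ cells and 4.03 ± 1.01 TPM in ATCC cells (log2 difference 1.23, adjusted p = 0.00142). The ATPase RUVBL2 had 136 ± 4 TPM in DSMZ cells and 193 ± 23 TPM in ATCC cells (log2 difference -0.38, adjusted p = 0.0376), a call lost in 7 of 18 other settings, among them leaving out any DSMZ library or ATCC replicate 3 (adjusted p up to 0.354).

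In the Notch list around GXYLT2, 4 of 7 tested genes were higher in DSMZ cells and 2 lower, with a median of 0.47. GXYLT1, the paralogue of GXYLT2, had 19.0 ± 1.0 TPM in DSMZ cells and 7.18 ± 3.50 TPM in ATCC cells (log2 difference 1.48, SE 0.34, edgeR adjusted p = 0.00824). NOTCH2 fell to 16.3 ± 1.3 TPM in DSMZ cells, against 35.5 ± 2.0 TPM in ATCC cells (log2 difference -1.12, adjusted p = 0.000175). NOTCH3 had 142 counts in DSMZ and 24 counts in ATCC libraries (log2 difference 2.46, adjusted p = 0.000293), but its TPM of 1.06 ± 0.32 in DSMZ cells and 0.601 ± 0.222 in ATCC cells overlapped, and the call was lost with a transcript length offset (log2 difference 0.90, adjusted p = 0.111) and with limma on TPM (adjusted p = 0.0905). Of 6 tested genes of the protein phosphatase 4 list, 1 was higher in DSMZ cells and 1 lower, with a median of 0.07. The regulatory subunit PPP4R1 had 54.1 ± 6.8 TPM in DSMZ cells and 34.0 ± 2.3 TPM in ATCC cells (log2 difference 0.67, adjusted p = 0.000576). IGBP1, which binds the catalytic subunit, had 21.3 ± 1.5 TPM in DSMZ cells and 31.7 ± 0.1 TPM in ATCC cells (log2 difference -0.54, adjusted p = 0.00445). The catalytic subunit PPP4C had 99.2 ± 0.1 TPM in DSMZ cells and 91.6 ± 9.8 TPM in ATCC cells (adjusted p = 0.423). Of the relatives of PDZRN3 and EBLN2, 2 were tested, with a median of 0.78. LNX1, a ubiquitin ligase with PDZ domains, was higher in DSMZ cells (82 counts in DSMZ and 35 counts in ATCC libraries, log2 difference 1.12, adjusted p = 0.0148). Its call was lost in 3 of 18 other settings, with adjusted p from 0.0676 without DSMZ replicate 3 (log2 difference 0.89) to 0.0758 with a transcript length offset. EBLN1 had 0 counts in DSMZ and 1 count in ATCC libraries.

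**Figure D5:**
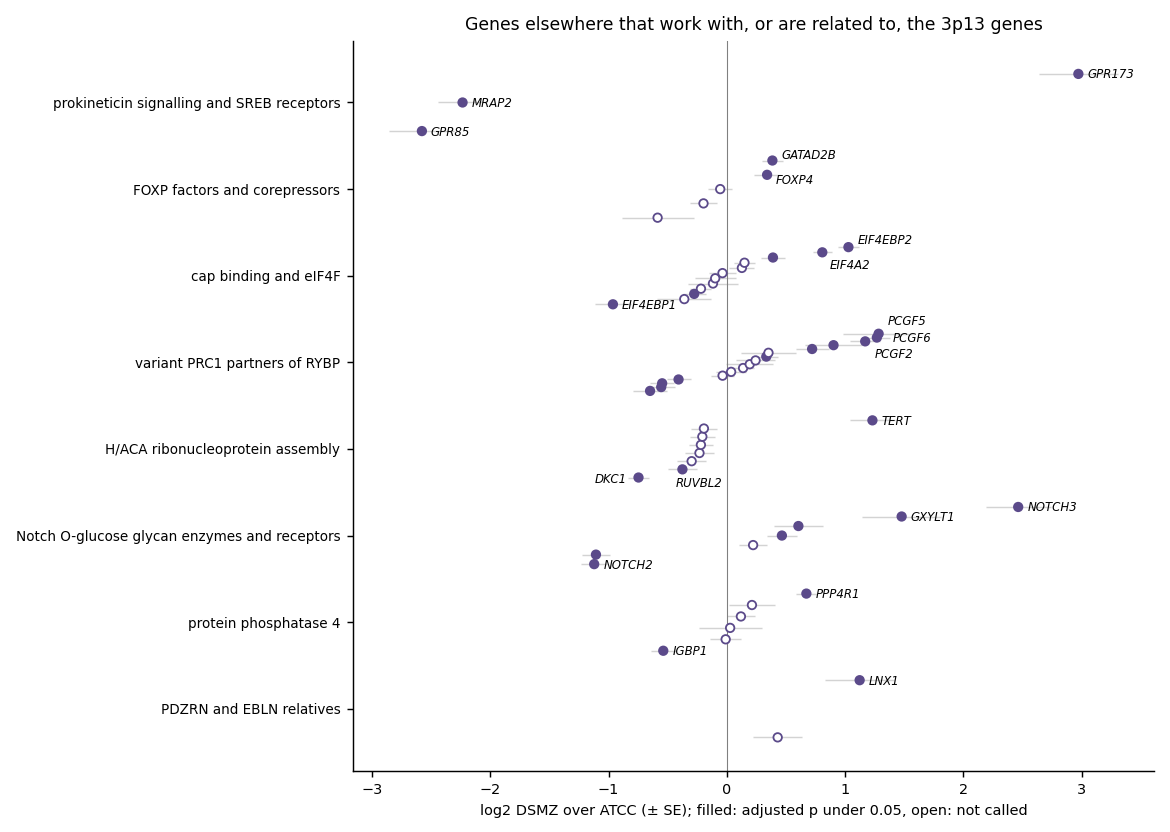
Log2 difference of DSMZ over ATCC cells (± SE) for the 59 tested genes of 8 lists of partners and relatives of the 3p13 genes; filled points have an adjusted p under 0.05. Called genes lie on both sides of 0, from GPR85 at -2.58 to GPR173 at 2.97.

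The genes whose pattern over the 6 libraries was most like that of GPR27 and PROK2 were found by the mean absolute difference of log2 CPM, each gene centred on its own mean, among 13719 protein-coding genes. This is a description, since the choice of GPR27 and PROK2 already favours genes that are low in DSMZ cells. A prior count of 2 was added for the log2 CPM, which shrinks the differences of genes with few counts. PROK2, with 3 DSMZ counts in all, is among these, so the ranks depend on that constant. Closest to GPR27 were CDH2 on chromosome 18 (0.21 log2 units), POU4F2 on chromosome 4 (0.24), ROBO1 on chromosome 3 (0.37), ADAMTS15 on chromosome 11 (0.40) and BEND4 on chromosome 4 (0.40). CDH2, the cell adhesion protein N-cadherin, had 0.0154 ± 0.0074 TPM in DSMZ cells and 12.2 ± 2.7 TPM in ATCC cells. The neighbours PROK2 and EIF4E3 were 35th and 46th in likeness to GPR27, and GPR27 was 439th in likeness to PROK2. Closest to PROK2 was EIF4E3 (0.14), followed by CNTN4 on the same chromosome (0.17), PCDHB8 on chromosome 5 (0.17), PTPRB on chromosome 12 (0.19) and ZNF827 on chromosome 4 (0.20). In the fit, the log2 differences of PROK2 and EIF4E3 were farther apart, at -6.15 and -4.77.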

How the data were processed

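Poly(A) RNA of 6 THP-1 cultures (3 DSMZ, 3 ATCC) was sequenced after a stranded library kit, per the labels' protocols. Tools named in the submitters' processing notes are bcl2fastq 2.20, Trimmomatic 0.35 and kallisto 0.43.0, with the build GRCh38; the annotation release and strand setting are not given in the sources used here. Files as deposited give an estimated count and a TPM per transcript, per the file headers; the authors' estimated counts are not normalized and not whole, and the deposited TPM are scaled by transcript length and library. Effective lengths were equal in all 6 files.

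Of 179973 transcripts, 163714 (91.0%) were matched to GENCODE 29 genes by ID, 14387 by symbol, and 1872 had no gene and were left out. Estimated counts were summed per gene and rounded. Genes were tested with edgeR 4.0.16 in R 4.3.3 (filterByExpr with a minimum count of 10, TMM, quasi-likelihood F test, source as the only term), with Benjamini-Hochberg adjustment over the 14572 genes tested and a threshold of 0.05. SE was taken as the size of the log2 fold change over the square root of F; fold changes are DSMZ over ATCC. The biological coefficient of variation was 15.9%. Intervals of count ratios are exact binomial at 95% and, like the floor of 3 counts, cover counting error only. P-values rest on the spread between replicate expansions. The test was tried on simulated counts first. Start regions and motifs were read from RefSeq tables (GRCh38.p14) and plotted values were drawn with matplotlib 3.10.9.

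The 10 genes, the gene lists, the windows and the alternatives were chosen with earlier results of these data known. Besides the 10 genes, the text names by rule the 3 nearest protein-coding neighbours on each side, the 5 called neighbours with the largest differences, up to 3 called genes of each list, and the 5 genes most like GPR27 and PROK2. EIF4E, EIF4E2, YAF2, PPP4C, EBLN1 and the receptors and ligand of the prokineticin list were named as direct relatives, after their values were seen. EIF4EBP3, PCGF1, PCGF3 and BMI1 were also named after their values were seen. Alternatives were other normalizations, DESeq2 1.42.0, limma 3.58.1 on log2(TPM + 0.5), other filters, protein-coding or primary assembly transcripts only, a transcript length offset, a GC correction, a replicate block, another window and leaving out each library in turn.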

Additional observations from a re-analysis of the deposited data

How the results depend on the processing

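EIF4E3, GPR27 and PROK2 were called lower in DSMZ cells under all 18 other settings. From counts, their log2 differences ranged from -4.99 to -4.33, from -9.39 to -7.96 and from -7.02 to -5.75 in that order. These calls use the libraries whose values led to the choice of GPR27 and PROK2, so they describe the processing and are no test. Of the 10 genes, 5 were called with DESeq2's Wald test, with the GC correction and with the GC correction plus replicate block, RYBP and PPP4R2 being the added ones, and 4 with no filter on low counts. Over all genes, the first 3 of these settings called 7214, 9437 and 9366 of 14572 genes tested. With no filter 7335 of 22648 were called, and in the main fit 7263 of 14572. Leaving out each library in turn gave 3 to 5 of the 10 genes (5 without ATCC replicate 1 or ATCC replicate 2) and 8 to 16 called neighbours (8 without DSMZ replicate 3). Over all genes, 7420 of 14764 were called without ATCC replicate 1 and 9509 of 14832 without ATCC replicate 2. In the narrower window of 65 to 79 Mb, 7 of 13 tested neighbours were called, since fewer genes were tested. Shares of transcripts moved when taken from TPM in place of counts, as given with EIF4E3 and FOXP1. Otherwise the cause of these changes was not tested. Of 501 values of named neighbours and partners under other settings, 464 kept their direction and their side of the threshold, 26 lost a call, 4 gained one and 7 changed sign, all 7 in genes that were not called. These were MITF at 0.13 with limma on TPM, 0.0405 with protein-coding transcripts only and 0.17 with the length offset, and MITF (-0.18 to 0.13) and FRMD4B (-0.0788 to 0.38) when leaving out each library in turn, where FRMD4B turned without ATCC replicate 2. FOXP1, SHQ1 and GXYLT2 also changed sign under some settings, and were not called either. Over all genes, the calls ranged from 5513 without DSMZ replicate 2 to 9509 without ATCC replicate 2.

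Replicate numbers are shared between the sources, and whether they pair the libraries is not settled. The correlations of same-numbered libraries' deviations from their group means were 0.0128, 0.0803 and 0.161. Those of other pairs lay between -0.103 and 0.0255. DSMZ replicates 2 and 3 correlated best with the ATCC library of the same number, and DSMZ replicate 1 with ATCC replicate 2. A fit with the replicate block called 3 of the 10 genes, 13 neighbours and 29 of the genes in the lists, against 32 without the block.

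Depth limits GPR27, PROK2 and PDZRN3, whose DSMZ or ATCC values rest on a few counts.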
